A study of Homo sapiens with 6 samples.

Results

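The collagen genes were compared between SUM159 cells that stably overexpress POGK from the pLVX lentiviral vector (POGK cells, 3 libraries) and SUM159 cells with the empty pLVX vector (control cells, 3 libraries). SUM159 is an established cell line from a human breast carcinoma without hormone receptors or HER2, and it looks mesenchymal. POGK is a transposon-derived protein with a KRAB domain, and the labels do not say whether either line is a clone or a pool. Both groups grew in Ham's F12 medium with serum, insulin and hydrocortisone, and RNA was sequenced after removal of ribosomal RNA. Members were all genes of the table whose symbol reads COL, a number, A and a number, which gave 33 of 18398 genes. They comprised 9 fibrillar genes (families 1, 3, 5, 11, 24 and 27), 6 basement membrane genes (COL4A1 to COL4A6) and 18 other collagen genes. COL1A2, the usual partner chain of COL1A1, is not analysed here.

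Collagens are triple helices of alpha chains in which glycine recurs at regular steps along the helix. Fibrillar collagens are made as procollagens, trimmed outside the cell and packed into crosslinked fibrils, which the fibril-associated collagens decorate. Type IV collagen instead forms the sheet-like network of basement membranes, and its genes lie in head-to-head pairs that share the DNA between their start sites. Other families form beaded filaments (type VI), anchoring fibrils (type VII), short-chain networks (type VIII) or span the cell membrane (types XIII and XVII). In breast tumours most fibrillar collagen comes from stromal fibroblasts, but mesenchymal tumour lines also express collagen genes.

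Total counts were 27645789 to 33689230 per library. POGK itself had 742, 781 and 780 CPM in POGK cells, against 62.6, 77.3 and 66.9 CPM in control cells, an 11.1-fold difference (edgeR adjusted p = 3.56e-07). CPM are counts divided by TMM-scaled library size. The mesenchymal markers VIM, CDH2, ZEB1, FN1, AXL and CD44 each had at least 1 CPM in every library. They summed to 5627 to 5687 CPM in POGK cells and 9451 to 11831 CPM in control cells. VIM, ZEB1, FN1 and CD44 were called lower in POGK cells, and CDH2 and AXL higher. EPCAM and ESR1 were below 1 CPM in every library. Of 8 fibroblast markers 7 were in the table, and 5 of them were at or above 1 CPM in every library, among them PDGFRA and DCN. Their summed level was 297 to 309 CPM in POGK cells and 489 to 644 CPM in control cells. They went both ways: PDGFRB, DCN, LUM, FAP and ACTA2 were called lower, POSTN was called higher and PDGFRA was not called. DCN had 161, 162 and 166 CPM in POGK cells and 476, 339 and 372 CPM in control cells. Summed endothelial markers ran from 4.56 to 5.02 CPM in POGK cells and 5.39 to 7.48 CPM in control cells, and blood cell markers from 1.79 to 2.46 CPM and 1.21 to 1.88 CPM in the same order. Of the defining genes of these cell types, KRT14, CDH1, PGR, THY1, CDH5, CLDN5, CD3E and HBB are among those not analysed here. The part of other cells in the collagen results was not tested, and fewer expressing cells cannot be told apart from less RNA per cell in bulk RNA. Control libraries differed from each other more than POGK libraries did, with a chi-square per gene of 22.5 to 49.7 between control libraries and 1.36 to 2.62 between POGK libraries. Nothing in the labels states that the replicates came from separate cultures.

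Collagen genes as a whole took a smaller part of the counts in POGK cells, but single chains went both ways. Summed over the 33 genes, the level was 4939, 4895 and 4959 CPM in POGK cells, against 8004, 6750 and 7110 CPM in control cells. As a share of all counts this was 0.528 ± 0.00385% in POGK cells and 0.680 ± 0.0306% in control cells (SD, n = 3 each). Every POGK library lay below every control library. Of the 33 genes, 29 passed the filter on low counts and were tested, 26 of them with enough counts in all 6 libraries. COL4A3 and COL9A2 passed through the control libraries and COL24A1 through the POGK libraries. At an edgeR adjusted p below 0.05, 17 tested collagens fell, 8 rose and 4 were not called, where 33.3% of all 15889 tested genes were lower, 32.7% higher and 66.0% called in either direction. Of 25 collagens whose level averaged 1 CPM or more, 17 fell and 6 rose. In 26 of the 29 tested collagens the groups were apart without overlap, against 73.7% of all tested genes. The median log2 fold change was -0.44 over the tested collagens and 0.00 over all tested genes. With library size alone as scaling, the median of all genes moved to 0.19 and that of collagens to -0.24, with 14 collagens lower and 9 higher. Over all genes that scaling gave 3925 lower and 6575 higher, where TMM gave 5285 lower and 5202 higher, so each direction given is relative to TMM.

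All 3 classes held genes of both directions, beside 33.3% lower and 32.7% higher among all tested genes. Fibrillar collagens had 4 of 9 genes higher (44.4%) and 3 lower (33.3%), with a median log2 fold change of 0.20. Their share of lower genes was that of all tested genes. Basement membrane collagens had 5 of 6 genes lower (83.3%) and 1 higher (16.7%), with a median of -0.72. Of the other collagens, 9 of 14 tested genes fell (64.3%) and 3 rose (21.4%), with a median of -0.37. No test of one class against another was made, so these are descriptions. COL4A3, among the lower basement membrane genes, passed the filter through the control libraries alone. COL24A1, among the higher fibrillar genes, passed it through the POGK libraries. In summed CPM, fibrillar genes had 1475, 1447 and 1466 in POGK cells and 2287, 1909 and 2262 in control cells, and the other collagens had 3118, 3095 and 3139 in POGK cells and 5282, 4452 and 4439 in control cells. Basement membrane genes differed less, with 347, 353 and 354 CPM in POGK cells and 435, 389 and 409 CPM in control cells. As a share of all counts, which TMM does not touch, basement membrane genes overlapped, at 0.0368, 0.0380 and 0.0380% in POGK cells and 0.0385, 0.0373 and 0.0393% in control cells.

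**Figure D1:**
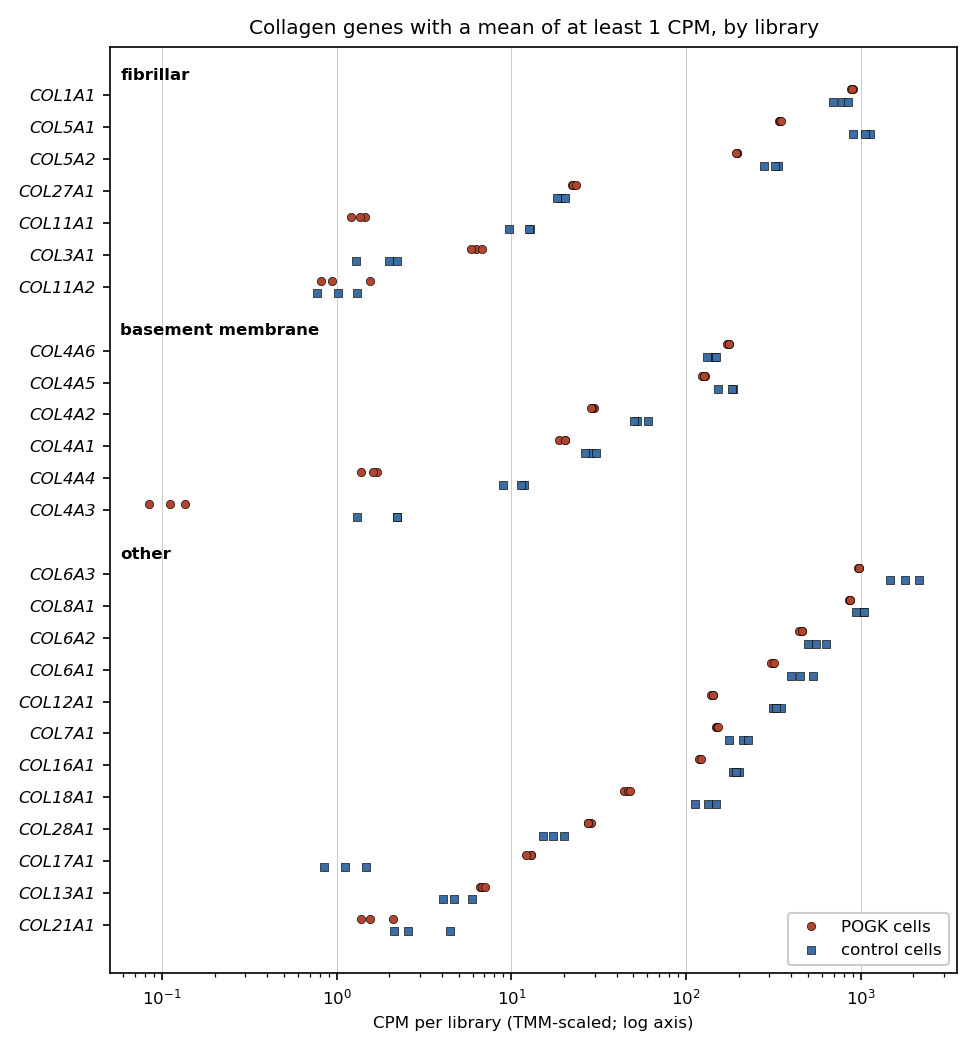
CPM, on a log axis, of the 25 collagen genes that averaged 1 CPM or more, with 1 point per library (circles, POGK cells; squares, control cells) and genes ordered by mean level within each class. For the abundant genes the POGK libraries lie close together, COL17A1 and COL3A1 stand to the right of their control squares, and COL4A3, COL4A4 and COL11A1 stand far to the left of theirs.

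**Figure D2:**
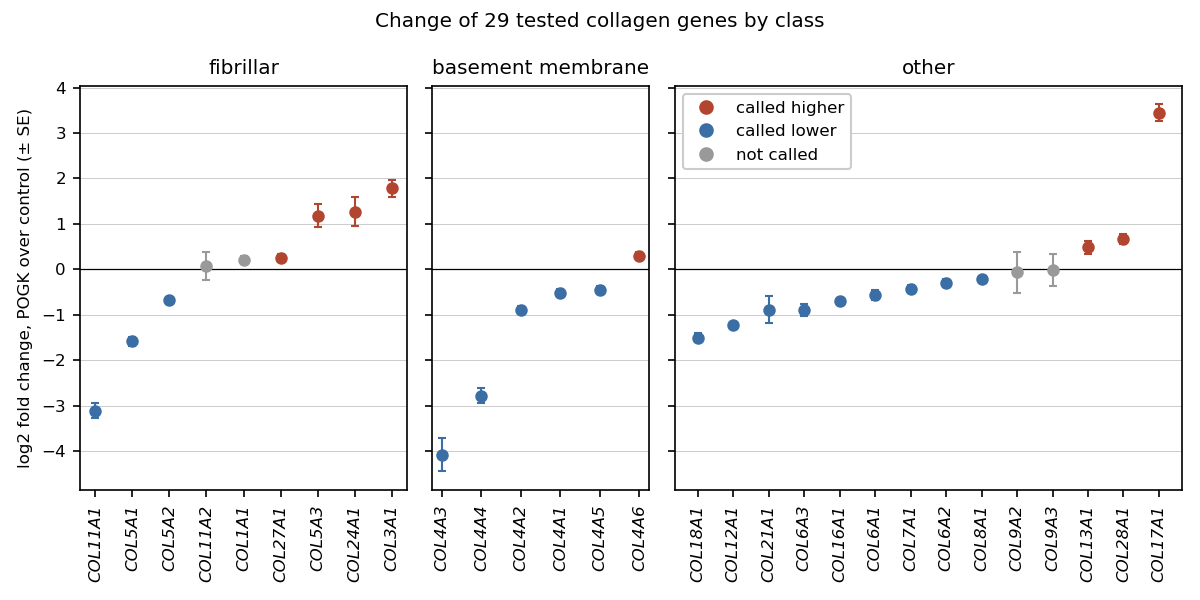
Log2 fold change of POGK over control cells with its standard error for the 29 tested collagen genes, by class; colours mark genes called at an edgeR adjusted p below 0.05. Values run from -4.08 for COL4A3 to 3.45 for COL17A1, and each class has genes on both sides of 0. COL4A3 passed the filter on low counts through the control libraries alone.

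Among fibrillar chains, COL1A1, the main chain of type I collagen, had 903, 875 and 888 CPM in POGK cells, against 783, 696 and 843 CPM in control cells. The POGK libraries lay above all control libraries, but the log2 fold change of 0.20 ± 0.09 (SE) was not called at an edgeR adjusted p of 0.0736. It was called at 0.39 with library size alone (edgeR adjusted p = 0.00279), at 0.21 without control replicate 1 (edgeR adjusted p = 0.0383) and at 0.26 without control replicate 3 (edgeR adjusted p = 0.0325). COL3A1, which builds type III fibrils in elastic tissues, rose 3.43-fold, with 6.31, 6.80 and 5.87 CPM in POGK cells and 1.29, 2.20 and 1.99 CPM in control cells (edgeR adjusted p = 6.78e-05). COL3A1 (ENSG00000168542) lies at chr2:188974373-189012746 on the plus strand of hg38, near COL5A2 (ENSG00000204262) at chr2:189031898-189225312 on the minus strand. This nearby pair moved in opposite directions.

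Type V collagen is a minor component that is built into type I fibrils and sets their diameter. Its most abundant chain, COL5A1 (ENSG00000130635; chr9:134641803-134844843, plus strand, hg38), fell 2.99-fold, with 342, 343 and 351 CPM in POGK cells and 1134, 902 and 1057 CPM in control cells (edgeR adjusted p = 5.78e-06). COL5A2 fell 1.60-fold, with 196, 195 and 194 CPM in POGK cells and 336, 279 and 324 CPM in control cells (edgeR adjusted p = 0.000126). Neither gene's groups overlapped. The rarer COL5A3 went the other way, with 58, 40 and 40 counts in POGK cells and 16, 15 and 20 counts in control cells, a 2.27-fold rise (edgeR adjusted p = 0.00286).

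COL11A1, a fibril chain of cartilage that is also known from invasive carcinoma stroma, had the largest fall of the fibrillar genes. It had 1.45, 1.35 and 1.21 CPM in POGK cells, against 12.7, 9.64 and 12.6 CPM in control cells, a log2 fold change of -3.11 ± 0.17 (SE; edgeR adjusted p = 3.46e-06). Its partner COL11A2 had 0.810, 0.939 and 1.55 CPM in POGK cells and 1.01, 0.766 and 1.31 CPM in control cells, and the groups overlapped (edgeR adjusted p = 0.832). COL27A1, a fibrillar chain of developing cartilage, had 22.3, 22.5 and 23.4 CPM in POGK cells and 19.2, 18.2 and 20.4 CPM in control cells. This 1.18-fold difference was called (edgeR adjusted p = 0.0357) but lost without POGK replicate 1, 2 or 3, at edgeR adjusted p-values of 0.0902, 0.102 and 0.132. COL24A1, a fibrillar chain of developing bone, had 25, 28 and 32 counts in POGK cells and 6, 14 and 10 counts in control cells (log2 fold change 1.27 ± 0.32, SE; edgeR adjusted p = 0.00672).

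Relative to each other, fibrillar chains changed their proportions. Counts were divided by the exon length of each gene and expressed as a share of the fibrillar sum in each library, a measure that does not depend on the scaling between libraries. COL1A1 made up 62.4, 61.6 and 61.7% of it in POGK cells, against 36.6, 38.8 and 39.7% in control cells. COL5A1 made up 19.0, 19.5 and 19.7% in POGK cells and 42.8, 40.6 and 40.1% in control cells. COL5A2 differed less, at 16.7 ± 0.185% in POGK cells and 19.1 ± 0.273% in control cells (SD, n = 3 each). The leading fibrillar chain per exon length was thus COL1A1 in all POGK libraries. In control libraries COL5A1 was ahead, but only at 40.1 against 39.7% in control replicate 3. Exon lengths were taken over all annotated transcripts, so a share also depends on which transcripts the cells use.

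**Figure D3:**
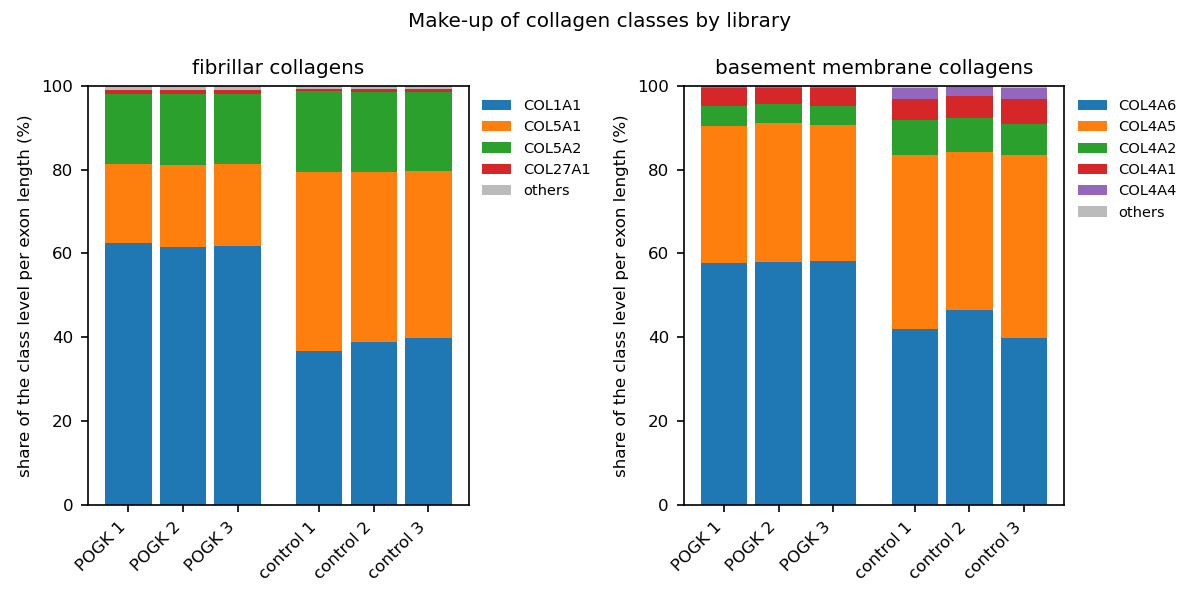
Share of each chain in the summed level per exon length of the fibrillar (left) and basement membrane (right) collagens, as stacked bars per library from 0 to 100%, POGK libraries left of control libraries. COL1A1 makes up 61.6 to 62.4% of the fibrillar sum in POGK cells and 36.6 to 39.7% in control cells, and COL4A6 is the largest part of the basement membrane sum in POGK cells at 57.7 to 58.1%.

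The 6 type IV genes lie in 3 head-to-head pairs, and 2 of the pairs fell together while the genes of the third moved apart. Their upstream sequences show what each pair shares. Each line gives the 250 bases before a RefSeq start site (GRCh38.p14), read 5′ to 3′ on the gene's strand. GENCODE gene bounds reach past some of these starts, to chr2:227164453 for COL4A4 and chr13:110305812 for COL4A2. The windows of COL4A4 and COL4A2 thus lie mostly or wholly within the GENCODE genes. Capitals mark matches on either strand to 5 motifs. The CCAAT box was searched as its name spells it, and the GC box was searched as GGGCGG. The TATA box was searched as TATAAA. For the AP-1 motif the letters were TGANTCA, and for the E-box they were CACCTG. COL4A1 and COL4A2 have 126 bases between their starts on chromosome 13, so the COL4A2 window, chr13:110307034-110307283 on the plus strand, also holds the whole stretch between both starts.
COL4A2: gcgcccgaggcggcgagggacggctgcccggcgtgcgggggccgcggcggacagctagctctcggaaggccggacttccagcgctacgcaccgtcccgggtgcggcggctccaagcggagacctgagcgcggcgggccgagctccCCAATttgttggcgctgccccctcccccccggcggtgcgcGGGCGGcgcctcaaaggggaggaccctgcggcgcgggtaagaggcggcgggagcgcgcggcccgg
COL4A3 and COL4A4 have 418 bases between their starts on chromosome 2, and their windows, chr2:227164374-227164623 on the plus strand and chr2:227164206-227164455 on the minus strand, share 82 bases that hold the only E-box match of each.
COL4A3: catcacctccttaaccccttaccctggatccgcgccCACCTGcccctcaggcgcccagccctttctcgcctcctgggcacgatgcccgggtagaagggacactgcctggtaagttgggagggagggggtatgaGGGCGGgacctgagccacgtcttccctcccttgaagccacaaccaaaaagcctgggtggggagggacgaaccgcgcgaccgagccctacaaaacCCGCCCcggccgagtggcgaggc
COL4A4: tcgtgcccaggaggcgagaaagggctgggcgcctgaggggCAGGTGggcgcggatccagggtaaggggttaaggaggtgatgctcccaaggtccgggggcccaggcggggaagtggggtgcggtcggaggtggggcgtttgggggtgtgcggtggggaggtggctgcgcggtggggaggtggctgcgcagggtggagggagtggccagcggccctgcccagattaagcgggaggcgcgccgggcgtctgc
COL4A5 and the nearer of 2 COL4A6 starts have 379 bases between them on chromosome X, with windows at chrX:108439588-108439837 on the plus strand and chrX:108439459-108439708 on the minus strand. These share 121 bases, in which 2 CCAAT matches lie on opposite strands, and COL4A6 has 1 more outside them.
COL4A5: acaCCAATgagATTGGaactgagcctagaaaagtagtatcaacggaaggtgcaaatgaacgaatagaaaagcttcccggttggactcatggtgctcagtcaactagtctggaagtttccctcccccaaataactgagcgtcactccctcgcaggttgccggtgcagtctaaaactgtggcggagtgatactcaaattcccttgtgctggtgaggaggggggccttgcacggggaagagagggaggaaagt
COL4A6: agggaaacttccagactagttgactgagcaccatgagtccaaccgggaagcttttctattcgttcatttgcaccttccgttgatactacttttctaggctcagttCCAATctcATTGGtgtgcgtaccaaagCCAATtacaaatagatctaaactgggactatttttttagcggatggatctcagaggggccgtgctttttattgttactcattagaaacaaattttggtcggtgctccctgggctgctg
A CCAAT match was present in 32.0% of 35116 promoter windows of this length, a GC box in 42.6%, an E-box in 17.5%, a TATA box in 10.7% and an AP-1 motif in 6.6%. Of the 33 collagens, 25 had an entry, with 34 windows, of which 9 held a CCAAT box, 22 a GC box, 5 an E-box, 5 a TATA box and 0 an AP-1 motif. COL14A1, COL1A1, COL22A1, COL3A1, COL5A2, COL6A1, COL8A1 and COL9A3 had no entry. Overlapping windows of 1 locus are not independent. A match in these letters was counted anywhere in the window and is a description of the sequence.

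COL4A3 and COL4A4, chains of the specialised network of kidney glomerulus and lung, had the largest falls among type IV genes. COL4A3 (ENSG00000169031; chr2:227164624-227314792, hg38) had 3, 4 and 4 counts in POGK cells, against 55, 41 and 66 counts in control cells, a log2 fold change of -4.08 ± 0.37 (SE; edgeR adjusted p = 2.82e-05). This gene passed the filter on low counts through the control libraries alone. COL4A4 (ENSG00000081052; chr2:227002714-227164453, hg38) had 1.37, 1.69 and 1.62 CPM in POGK cells and 11.8, 8.93 and 11.3 CPM in control cells, a 6.85-fold fall (edgeR adjusted p = 4.95e-06). The groups stood well apart for both genes, and both were rare next to the other type IV genes. COL4A3 shares 838 exon bases with MFF-DT on the opposite strand, which had 132 counts over the 6 libraries against 173 for COL4A3. Reads of the 2 genes in the shared bases cannot be told apart where the strand setting of the counting is not known.

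COL4A1 and COL4A2, which form the type IV heterotrimer present in nearly all basement membranes, also fell. COL4A2 had 29.8, 28.9 and 28.6 CPM in POGK cells and 60.6, 52.3 and 50.6 CPM in control cells, a 1.87-fold fall (edgeR adjusted p = 3.88e-05). COL4A1 had 20.2, 18.7 and 20.4 CPM in POGK cells and 28.5, 26.4 and 30.4 CPM in control cells, a 1.44-fold fall (edgeR adjusted p = 0.000857). Within each library, the ratio of COL4A1 to COL4A2 per exon length was 0.890, 0.849 and 0.938 in POGK cells, against 0.618, 0.664 and 0.790 in control cells. The groups did not overlap in this ratio, and neither did they in CPM for 73.7% of all tested genes.

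COL4A5 and COL4A6, chains of the X-linked type IV network of epithelial and smooth muscle basement membranes, were the most abundant type IV genes and moved apart. COL4A5 (ENSG00000188153; chrX:108439838-108697545, hg38) had 124, 129 and 127 CPM in POGK cells and 185, 153 and 183 CPM in control cells, a 1.37-fold fall (edgeR adjusted p = 0.00137). COL4A6 (ENSG00000197565; chrX:108155607-108439497, hg38) was the type IV gene that rose, with 171, 175 and 177 CPM in POGK cells and 146, 148 and 131 CPM in control cells, or 1.23-fold (edgeR adjusted p = 0.00466). The ratio of COL4A5 to COL4A6 per exon length was 0.567, 0.573 and 0.561 in POGK cells, against 0.991, 0.808 and 1.09 in control cells. COL4A6 made up 57.9 ± 0.198% of the type IV sum per exon length in POGK cells and 42.8 ± 3.43% in control cells (SD, n = 3 each). COL4A5 made up 32.7, 33.2 and 32.6% in POGK cells and 41.5, 37.7 and 43.6% in control cells.

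**Figure D4:**
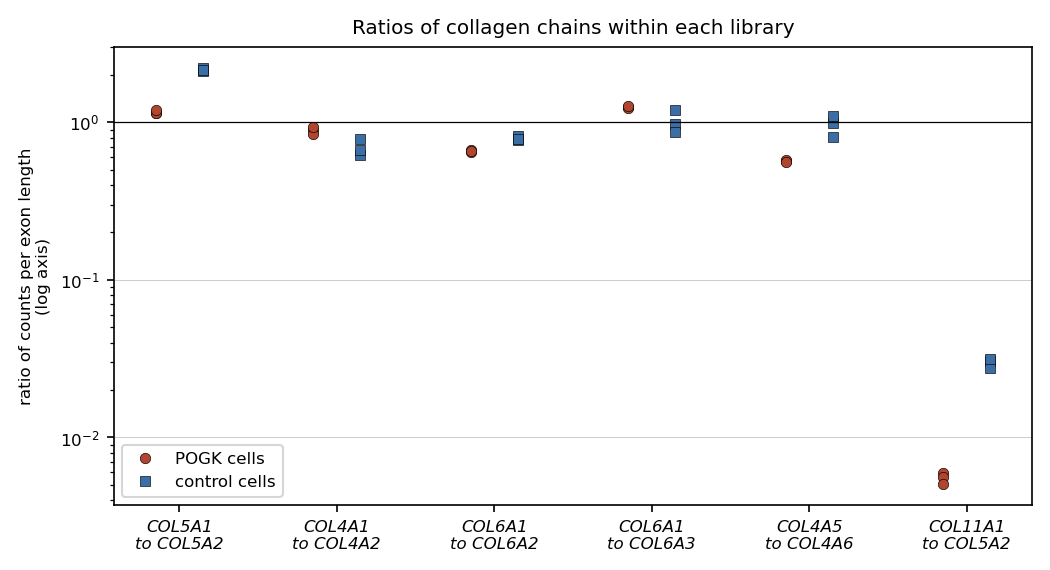
Ratio of counts per exon length between pairs of collagen chains, on a log axis, with 1 point per library (circles, POGK cells, left of squares, control cells); the line marks a ratio of 1. COL5A1 to COL5A2 lies at 1.14 to 1.19 in POGK cells and 2.12 to 2.22 in control cells, and no pair shows overlap between the groups. Among all tested genes, the groups did not overlap in CPM for 73.7%.

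Partner chains of other collagens also differed in ratio between the groups. How often ratios of other gene pairs differ was not computed. In CPM, the groups of 73.7% of all tested genes did not overlap. COL5A1 to COL5A2 per exon length was 1.14, 1.15 and 1.19 in POGK cells, against 2.22, 2.12 and 2.14 in control cells, where textbook type V collagen holds more COL5A1 than COL5A2 chains. COL11A1 to COL5A2, which form mixed molecules in some tissues, was 0.00553 ± 0.000456 in POGK cells and 0.0298 ± 0.00184 in control cells (SD, n = 3 each). COL11A1 by itself fell 8.63-fold. The design allows no p below 0.1 for a single ratio in an exact permutation test, so none was computed.

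Type VI collagen, whose 3 main chains assemble into beaded filaments near the cell surface, held the most abundant collagen mRNA by CPM. COL6A3 had 975, 966 and 974 CPM in POGK cells, against 2142, 1794 and 1480 CPM in control cells, a 1.86-fold fall (edgeR adjusted p = 0.000308). COL6A1 had 314, 306 and 317 CPM in POGK cells and 536, 398 and 451 CPM in control cells, a 1.48-fold fall (edgeR adjusted p = 0.00142). Control replicate 1 was the highest library for both. COL6A2 had 464, 444 and 463 CPM in POGK cells and 630, 498 and 557 CPM in control cells. Its 1.23-fold fall was called (edgeR adjusted p = 0.0198) but lost without POGK replicate 1, 2 or 3 at edgeR adjusted p-values of 0.0624, 0.0867 and 0.0665, and with library size alone at 0.229. COL6A1 and COL6A2 lie near each other on chromosome 21 of hg38, at chr21:45981770-46005050 and chr21:46098112-46132848. Their ratio per exon length was 0.653, 0.664 and 0.661 in POGK cells and 0.820, 0.770 and 0.780 in control cells. The ratio of COL6A1 to COL6A3 per exon length was 1.25, 1.23 and 1.27 in POGK cells and 0.973, 0.863 and 1.19 in control cells. In raw counts it was 0.322, 0.317 and 0.326 in POGK cells and 0.250, 0.222 and 0.305 in control cells.

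Fibril-associated collagens fell where they were abundant. COL12A1, which links type I fibrils and is raised by mechanical load, had 143, 139 and 142 CPM in POGK cells and 348, 313 and 326 CPM in control cells, a 2.33-fold fall (edgeR adjusted p = 4.29e-06). COL16A1, found near basement membranes and small fibrils, had 120, 119 and 122 CPM in POGK cells and 202, 186 and 193 CPM in control cells, a 1.61-fold fall (edgeR adjusted p = 3.36e-05). Both groups were tight for these genes. COL21A1, a small member of the group, had 49, 56 and 62 counts in POGK cells and 64, 140 and 63 counts in control cells, so control replicate 2 held more than the other control libraries. It fell with a log2 fold change of -0.89 ± 0.30 (SE; edgeR adjusted p = 0.0256), which was -0.50 without control replicate 2 (edgeR adjusted p = 0.0818) and was not called with library size alone (edgeR adjusted p = 0.0822) or without POGK replicate 1 or 2 (edgeR adjusted p = 0.0902 and 0.0766). COL9A2 and COL9A3, chains of cartilage type IX collagen, had 10 to 32 and 19 to 33 counts in POGK cells and 11 to 25 and 13 to 28 counts in control cells, and neither was called (edgeR adjusted p = 0.901 and 0.987). COL9A3 shares 155 exon bases with TCFL5 on the opposite strand, which had 5516 counts over the 6 libraries against 145 for COL9A3. COL14A1 was left out by the filter on low counts. It had 3, 0 and 2 counts in POGK cells and 13, 10 and 11 in control cells, and without the filter its edgeR adjusted p was 0.00327. COL22A1, also filtered, had 21 counts over the POGK libraries and 13 over the control libraries.

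Collagens that span the cell membrane rose. COL17A1 (ENSG00000065618; chr10:104031286-104085880, minus strand, hg38), the hemidesmosome collagen that anchors basal epithelial cells, had the largest rise of all collagens. It had 13.0, 12.9 and 12.1 CPM in POGK cells, against 0.845, 1.47 and 1.11 CPM in control cells, a log2 fold change of 3.45 ± 0.18 (SE; edgeR adjusted p = 3.25e-06). In counts, this was 465, 467 and 358 in POGK cells and 21, 46 and 33 in control cells. Of 8 epithelial markers, 6 were in the table, with a sum of 485 to 491 CPM in POGK cells and 445 to 506 CPM in control cells. They went both ways: KRT18 was called higher, with 204, 200 and 208 CPM in POGK cells and 107, 143 and 123 CPM in control cells, while KRT5, KRT8, KRT17 and KRT19 were called lower and EPCAM was not tested. KRT5, a basal keratin, had 0.140, 0.249 and 0.0337 CPM in POGK cells and 2.57, 1.95 and 2.69 CPM in control cells. The part of these markers in the COL17A1 result was not tested. The 250 bases before its start, chr10:104085881-104086130 on the minus strand, are shown beside those of COL11A1, the fibrillar gene with the largest fall, at chr1:103108523-103108772 on the minus strand. Capitals mark the same motifs as above. The COL11A1 window lies within the GENCODE bounds of that gene, which reach chr1:103108872.
COL17A1: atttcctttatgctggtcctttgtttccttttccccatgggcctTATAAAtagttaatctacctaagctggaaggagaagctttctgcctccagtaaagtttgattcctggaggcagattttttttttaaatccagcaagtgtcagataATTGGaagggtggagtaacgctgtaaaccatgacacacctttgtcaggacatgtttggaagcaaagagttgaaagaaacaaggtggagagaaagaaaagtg
COL11A1: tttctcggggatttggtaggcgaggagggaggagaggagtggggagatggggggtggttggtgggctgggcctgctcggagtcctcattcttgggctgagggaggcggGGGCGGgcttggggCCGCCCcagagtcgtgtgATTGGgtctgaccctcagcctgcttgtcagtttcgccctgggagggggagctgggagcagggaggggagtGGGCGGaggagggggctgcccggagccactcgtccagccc
The COL17A1 window held 1 TATAAA match, 1 CCAAT match and no GC box match, with 40.4% G and C and 1 CpG. The TATAAA match lay in the part of the window farthest from the start. The COL11A1 window held 3 GC box matches and 1 CCAAT match, with 68.8% G and C and 11 CpGs. The median over all promoters was 58.0% G and C and 11 CpGs. COL17A1 and COL11A1 were chosen by their fold changes, and a link of promoter sequence to direction was not tested. COL13A1, a membrane collagen of adhesion sites, had 6.57, 6.77 and 7.05 CPM in POGK cells and 5.91, 4.72 and 4.04 CPM in control cells. It rose 1.39-fold (edgeR adjusted p = 0.0212), a call lost without POGK replicate 1, 2 or 3 (edgeR adjusted p = 0.0510, 0.0621 and 0.0700) and without control replicate 3 (edgeR adjusted p = 0.0607).

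The tested genes of the remaining families fell, apart from COL28A1. COL18A1, the basement membrane proteoglycan that releases endostatin, had 44.3, 46.6 and 47.6 CPM in POGK cells and 149, 113 and 133 CPM in control cells, a 2.85-fold fall (edgeR adjusted p = 8.08e-06). It shares 1563 exon bases, 18.5% of its exon length, with SLC19A1 on the opposite strand, which had 3914 counts over the 6 libraries against 15894 for COL18A1. Its relative COL15A1 had 6, 8 and 1 counts in POGK cells and 11, 9 and 11 in control cells and was not tested. COL7A1, the anchoring fibril collagen of skin, had 148, 151 and 153 CPM in POGK cells and 211, 176 and 225 CPM in control cells, a 1.36-fold fall (edgeR adjusted p = 0.00262). COL8A1, a short-chain collagen of vessel walls and the eye, had 859, 872 and 871 CPM in POGK cells and 1034, 945 and 1043 CPM in control cells. Its groups did not overlap, but the 1.16-fold fall (edgeR adjusted p = 0.0332) was lost with library size alone, at a log2 fold change of -0.02, without POGK replicate 1, 2 or 3 (edgeR adjusted p = 0.136, 0.123 and 0.131) and without control replicate 3 (edgeR adjusted p = 0.0691). Its partner COL8A2 had 8 counts over the POGK libraries and 16 over the control libraries. COL28A1, a collagen related to type VI, rose 1.59-fold, with 1015, 994 and 809 counts in POGK cells and 428, 475 and 593 counts in control cells (edgeR adjusted p = 0.000684).

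The order of levels per exon length depends on the lengths used, which span all annotated transcripts. COL6A3, with 21516 exon bases, was 5th in both groups in this order, though highest by CPM. In POGK cells COL1A1 was highest at 98.7 CPM per kilobase, before COL8A1 at 92.2, COL6A2 at 85.6, COL6A1 at 56.4, COL6A3 at 45.2, COL5A1 at 30.9 and COL5A2 at 26.7. In control cells COL8A1 was highest at 107 CPM per kilobase, before COL6A2, COL5A1 at 92.4, COL1A1 at 85.9, COL6A3 at 83.9, COL6A1 at 83.4 and COL5A2 at 42.8. Neighbours in the control order overlapped across libraries: COL5A1 had 102, 80.8 and 94.7 CPM per kilobase there and COL1A1 86.9, 77.2 and 93.6. In POGK cells the first 3 were separate from COL6A1 in every library. As shares of this length-scaled sum, fibrillar genes and the other collagens overlapped between groups and basement membrane genes did not. The shares were 30.8 ± 0.182% in POGK cells and 31.3 ± 1.45% in control cells for fibrillar genes, 6.26 ± 0.108% and 5.00 ± 0.210% for basement membrane genes, and 63.0 ± 0.129% and 63.7 ± 1.42% for the others (SD, n = 3 each).

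Genes that act on collagen fell more often than they rose in most steps of the pathway. Of 143 genes in 9 lists, 118 were tested, of which 72 fell and 20 rose, against 33.3% lower and 32.7% higher among all tested genes. The lists were chosen with earlier results of these data known, so this comparison only describes them. Of 22 enzymes and chaperones that mature collagen in the endoplasmic reticulum, 17 fell and 3 rose, with a median log2 fold change of -0.44. P4HA1, a prolyl hydroxylase subunit that is induced by low oxygen, had 116, 120 and 124 CPM in POGK cells and 773, 470 and 577 CPM in control cells, a 5.05-fold fall (edgeR adjusted p = 9.19e-06). P4HB, its partner subunit, fell 1.31-fold, the lysyl hydroxylase PLOD1 1.94-fold, CRTAP of the prolyl 3-hydroxylase complex 1.72-fold, and the prolyl isomerases FKBP9 and FKBP10 1.97-fold and 1.67-fold. Genes of procollagen export were mixed, with 4 of 14 higher and 4 lower. Without POGK replicate 1, 2 or 3, 2 were higher, and without POGK replicate 3 or with library size alone, 2 were lower. PREB, which activates the SAR1 GTPase, rose 1.62-fold, while SAR1A and the coat subunit SEC31A fell 1.54-fold and 1.43-fold. CREB3L2, a factor that raises coat genes in cartilage, fell 1.17-fold, a call lost with library size alone (edgeR adjusted p = 0.638) and without POGK replicate 1, 2 or 3 (edgeR adjusted p = 0.0600, 0.112 and 0.107). The coat subunits SEC23A and SEC24D had log2 fold changes of -0.05 and -0.22 and were not called (edgeR adjusted p = 0.693 and 0.107), but were called without control replicate 2 at -0.16 and -0.34 (edgeR adjusted p = 0.0281 and 0.00170).

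Outside the cell, 4 of 7 tested procollagen processing genes fell and 0 rose by edgeR (1 rose without POGK replicate 3, without control replicate 1 and with library size alone). ADAMTS2, which removes the amino-terminal propeptide of fibrillar procollagens, had 1.87, 0.884 and 0.843 CPM in POGK cells, against 32.8, 20.9 and 30.7 CPM in control cells, a log2 fold change of -4.53 ± 0.30 (SE; edgeR adjusted p = 8.18e-06). The carboxy-terminal propeptidase BMP1 and its enhancers PCOLCE and PCOLCE2 fell 1.94-fold, 2.01-fold and 1.53-fold. Of 4 tested crosslinking enzymes 3 fell. The lysyl oxidase gene LOX had 28.4 ± 0.780 CPM in POGK cells and 483 ± 160 CPM in control cells (SD, n = 3 each), a 17.0-fold fall. LOXL1 and LOXL2 fell 4.99-fold and 2.13-fold, and LOXL3 had a log2 fold change of 0.22 and was not called (edgeR adjusted p = 0.395). All 7 tested fibril-associated proteoglycans and glycoproteins fell, among them FN1, the fibronectin gene, with 959, 970 and 957 CPM in POGK cells and 3503, 2660 and 2998 CPM in control cells. DCN, which binds fibrils, fell 2.43-fold and the collagen-binding SPARC 1.60-fold. THBS1 fell 1.17-fold (edgeR adjusted p = 0.0418), a call lost with library size alone, other size factors, no filter, the replicate block (edgeR adjusted p = 0.0599) and in each fit without 1 library other than control replicate 1, at edgeR adjusted p-values from 0.0788 to 0.167.

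Of 13 tested basement membrane partners of type IV collagen, 10 fell and 0 rose by edgeR (2 rose with library size alone and 1 without control replicate 2). The laminin chains LAMB1, LAMB2 and LAMC1 fell 3.62-fold, 3.72-fold and 1.96-fold, and LAMB3 had a log2 fold change of -0.18 and was not called (edgeR adjusted p = 0.0966), but was called at -0.25 without control replicate 3 (edgeR adjusted p = 0.0336). Collagen receptors had 8 of 12 genes lower and 3 higher. ITGA2, the collagen-binding integrin chain of epithelial cells and platelets, had 106, 114 and 119 CPM in POGK cells and 39.1, 59.1 and 48.4 CPM in control cells, a 2.31-fold rise (edgeR adjusted p = 7.73e-05). ITGA10, a collagen-binding chain of cartilage, fell 3.34-fold, the collagen uptake receptor MRC2 3.37-fold and the shared chain ITGB1 1.33-fold. CD44 fell 1.20-fold, a call lost without POGK replicate 1, 2 or 3 (edgeR adjusted p = 0.0728, 0.0901 and 0.0951) and with library size alone.

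Genes of collagen degradation had 9 of 15 lower and 4 higher. MMP14, the membrane-bound collagenase, had 5.53, 4.61 and 5.23 CPM in POGK cells and 51.1, 35.9 and 42.0 CPM in control cells, an 8.39-fold fall (edgeR adjusted p = 2.71e-06). The gelatinase MMP2 fell 2.48-fold, the lysosomal protease CTSB 2.63-fold, and the inhibitors TIMP1 and TIMP2 1.82-fold and 2.56-fold. Chosen after their values were seen, the interstitial collagenase MMP1 had 9.97, 10.9 and 12.3 CPM in POGK cells, against 0.644, 1.85 and 0.808 CPM in control cells, a 9.76-fold rise, and the inhibitor TIMP3 rose 2.14-fold. Of 24 tested transcription factors known to act on collagen genes, 10 (41.7%) fell and 6 (25.0%) rose, but with library size alone 7 were called lower and 9 higher. RUNX2 and TFAP2A fell 2.28-fold and 2.25-fold, CEBPB had a log2 fold change of -1.81 and was called lower, and SP1, which binds GC boxes, fell 1.39-fold. YBX1 and SMAD3 had log2 fold changes of -0.03 and -0.12 and were not called (edgeR adjusted p = 0.760 and 0.120). YBX1 was called higher at 0.17 with library size alone (edgeR adjusted p = 0.0300), and SMAD3 lower at -0.14 without control replicate 2 (edgeR adjusted p = 0.0425).

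**Figure D5:**
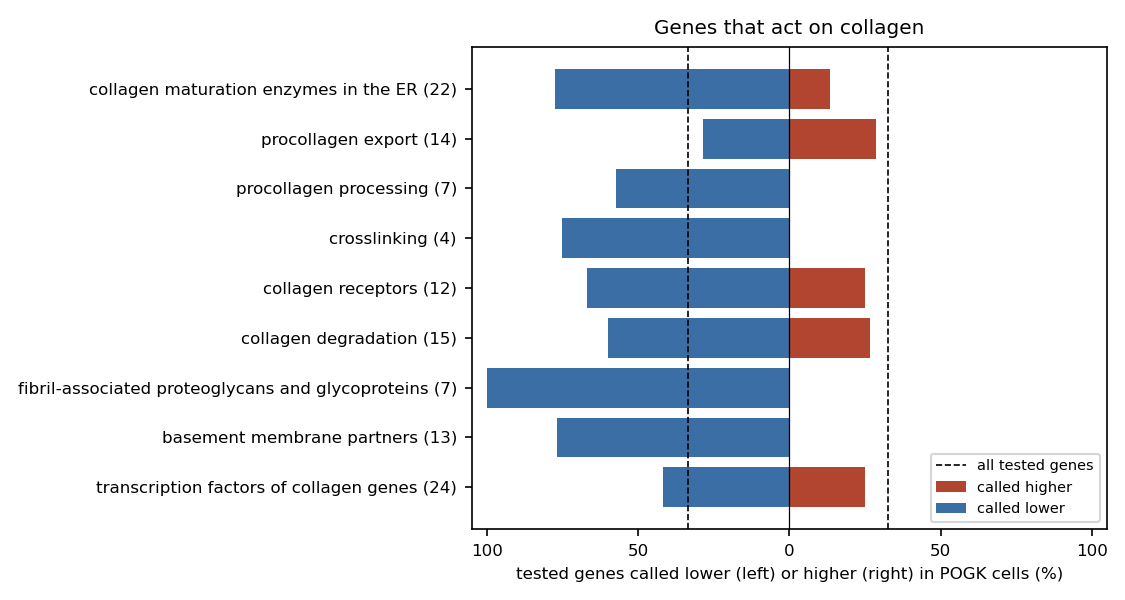
Share of tested genes called lower (left of 0) or higher (right of 0) in POGK cells for 9 lists of genes that act on collagen, with the number tested in brackets; dashed lines mark the shares among all tested genes, 33.3% lower and 32.7% higher. All 7 fibril-associated proteoglycans and glycoproteins lie on the lower side, and procollagen export has equal shares on both sides. Earlier results of these data were known when the lists were chosen.

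In the authors' deposited table, 19 of the 33 collagens were lower and 8 higher at an adjusted p below 0.05. All 25 collagens called by edgeR were called there in the same direction. COL14A1 and COL15A1, which the filter left untested here, were also lower there.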

How the data were processed

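RNA was sequenced from 6 SUM159 libraries. Per the submitters' processing notes the tools were Trimmomatic, STAR, SAMtools, deepTools and featureCounts on hg38. The sources used here do not state the annotation or strand setting of the counting. Raw counts per Ensembl gene were deposited for 18398 genes, 82 without a symbol, at 27645789 to 33689230 counts per library. The table also held, per the file headers, a normalized signal column per library (from its values the count divided by 1 size factor), the authors' log2 fold change and its error, their test's score, and their raw and adjusted p-value. These enter only the sentences that name that table.

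Counts were tested over the whole table with edgeR 4.0.16 (R 4.3.3): quasi-likelihood test, robust estimation, TMM scaling and the default low-count filter. Adjustment was by Benjamini-Hochberg over 15889 genes, with calls at 0.05. Standard errors came from the F statistic. This fits 1 spread to both groups, although control libraries varied more. The p-values measure the spread between these libraries, which may be technical. Exon length, position and overlap came from GENCODE release 44, which uses hg38. Promoter sequences are RefSeq's (GRCh38.p14). The scripts were run on simulated counts with few changed genes and 1 spread for both groups. That run could not check the fit where control libraries vary more or where most genes are called.

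Collagens at a mean of at least 1 CPM are given by library. Of each list of genes that act on collagen, the 4 most abundant and the 2 with the smallest adjusted p are named. Members and lists were chosen with earlier results of these data known. Alternatives were DESeq2 1.42.0, limma-voom (limma 3.58.1), other scalings and filters, a replicate block and leaving out each library. The 2-fold requirement was added after seeing the data.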

Additional observations from a re-analysis of the deposited data

How the results depend on the processing

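Of 29 tested collagens, 19 kept their call and direction under DESeq2, limma-voom, both other scalings, both other filters, the replicate block and each fit without 1 library. COL24A1 did so in all of these but the filter at 1 CPM, under which it was not tested, and 7 collagens were called higher there. Collagens called lower numbered 15 to 18 and those called higher 6 to 9 in the fits without 1 library. With no filter, all 33 collagens were tested, with 18 lower and 8 higher. Library size alone gave 14 lower and 9 higher. The requirement of a change of at least 2-fold, added after seeing the data, left 6 lower and 4 higher collagens. Of all tested genes, 22.3% met it in either direction. By class it left 2 lower and 3 higher fibrillar genes, 2 lower and 0 higher basement membrane genes, and 2 lower and 1 higher others.

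Deviations of same-numbered libraries correlated at 0.128, 0.063 and -0.002. POGK libraries differed little from each other, at a chi-square per gene of 1.36 to 2.62. The correlations therefore cannot show whether the replicate numbers pair the libraries, and the labels do not say. With the replicate block, 16 collagens were lower and 7 higher, and COL8A1 (edgeR adjusted p = 0.0604) and COL27A1 (edgeR adjusted p = 0.0699) were no longer called.

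Log2 fold changes turned in sign for genes that were not called. COL9A2 was 0.12 with library size alone, 0.32 without POGK replicate 1, 0.08 when control replicate 2 and 0.01 when control replicate 3 was left out, within a range of -0.58 to 0.32 without 1 library. COL9A3 was 0.09 with limma-voom, 0.19 with library size alone, 0.01 with the replicate block, and 0.01, 0.10, 0.31 and 0.06 without POGK replicate 1, POGK replicate 3, control replicate 1 and control replicate 3, and -0.33 without control replicate 2. COL11A2 was -0.22 without POGK replicate 3 and -0.11 without control replicate 2, and at most 0.30 without 1 library. With library size alone, LAMB3 was 0.02, SEC23A 0.15, SMAD3 0.07 and YBX1 0.17, and the list medians were 0.17 for procollagen export and 0.09 for transcription factors. Without control replicate 1, SEC23A was 0.03 and YBX1 0.02, against lowest values without 1 library of -0.16 and -0.09. The cause was not tested. The 4 collagens left out by the default filter did not pass it in enough libraries. With no filter, COL14A1 was called lower at a log2 fold change of -2.91 (edgeR adjusted p = 0.00327). COL8A2, COL15A1 and COL22A1 were not called.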
